A study of Mus musculus with 6 samples.

Results

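The mRNA levels of 10 genes of mitochondrial fusion and fission were examined in MLE12 cells after knockdown of *Idh3a* and *Slc25a1*. The genes were chosen by name, namely *Mfn1*, *Mfn2*, *Opa1*, *Oma1*, *Dnm1l*, *Fis1*, *Mff*, *Mief1*, *Mief2* and *Mtfp1*, out of 54532 genes in the deposited count table. All 10 had enough counts to be among the 15307 genes tested. MLE12 is an immortalized epithelial line from mouse lung, labelled here with the strain C57BL/6J. The control group, Ctrl shRNA, received 1 negative control lentivirus at an MOI of 50, the MOI being the infectious particles added for each cell. The study calls this vector empty but lists a short sequence for it. The other group, Idh3α shRNA + Slc25a1 shRNA (knockdown below), received 2 lentiviruses at an MOI of 50 each. The groups therefore differed in the number of lentiviruses as well as in the targeted genes, and these cannot be told apart. The medium of both groups was changed after 16 h and total RNA was taken after a further 80 h, from 3 samples per group. *Idh3a* encodes the catalytic subunit of a mitochondrial isocitrate dehydrogenase and *Slc25a1* the carrier that exports citrate from mitochondria, and the study used their knockdown to raise mitochondrial citrate. The labels do not say that the replicates were separate cultures, so p-values measure the spread between these samples, which may be technical.

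Mitochondria form a network that is reshaped by fusion and fission. The outer membranes are joined by the GTPases mitofusin 1 and mitofusin 2 (*Mfn1*, *Mfn2*) and the inner membranes by the GTPase OPA1, which the stress-activated protease OMA1 can cleave. Fission is carried out by the cytosolic GTPase DRP1 (*Dnm1l*), which receptors on the outer membrane recruit, and much of its control acts on the protein through phosphorylation and recruitment. These steps cannot be read from mRNA levels.

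Libraries held 27273502 to 28535653 counts in all. Ctrl shRNA replicate 2 stood apart from the other 5 libraries. Only 16681 genes had any count in it, against 19902 to 23147 in those, and its 100 most abundant genes held 27.2% of its counts against 12.6% to 12.9%. Mitochondrially encoded genes held 6.49% of its counts against 1.57% to 1.80%, and its TMM factor was 0.711 against 1.05 to 1.09. The part of these differences in the results was not tested. The edgeR and DESeq2 comparisons, the pair ratios and the order of levels are given with and without this library. The targeted genes were lower in all knockdown libraries than in any control, with *Idh3a* at 79.8, 137 and 93.0 CPM against 58.5, 57.9 and 55.5, and *Slc25a1* at 103, 98.7 and 108 CPM against 68.9, 69.6 and 63.0. Here CPM is the count scaled to a common library size by the TMM method, and values are listed in the order of replicates 1, 2 and 3. By edgeR's test the Benjamini-Hochberg adjusted p was 0.254 for *Idh3a* and 0.104 for *Slc25a1* with all libraries, and 0.0142 and 0.00649 without Ctrl shRNA replicate 2. Of 9 markers of alveolar type 2 cells, 5 passed the count filter and *Sftpd* had no count in any library. The 9 together summed to 524 to 533 CPM in the controls and 442 to 473 CPM in the knockdown libraries, with the part of this difference in the results below not tested. Most of this sum was *Nkx2-1*, *Abca3* and *Sftpc*, at means of 336, 127 and 64.1 CPM in the controls. Their means were 293, 132 and 30.5 CPM in the knockdown libraries, and 342, 135 and 47.5 CPM in the controls without Ctrl shRNA replicate 2. Of 6 general epithelial markers, 4 passed the filter, with sums of 1051 to 1185 CPM and 1184 to 1296 CPM. Of 9 markers of leukocytes, endothelium and fibroblasts, 5 passed, while *Ptprc* and *Adgre1* of the leukocytes had no count. These 9 summed to 348 to 1235 CPM in the controls and 320 to 348 CPM in the knockdown libraries. The highest of these sums was that of Ctrl shRNA replicate 2. Most of the sum was *Dcn* of the fibroblasts, at a mean of 628 CPM in the controls, 337 CPM in the controls without Ctrl shRNA replicate 2, and 305 CPM in the knockdown libraries.

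The mitofusins are paralogs, so the length over which their mRNAs are identical bears on whether reads can be assigned to one or the other. The longest run of bases shared by the principal transcripts Mfn1-201 and Mfn2-201 was 21 bases, and no stretch of 50 bases was shared by the 2 genes. For *Mief1* and *Mief2*, which are paralogs as well, the longest shared run was 16 bases.

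None of the 10 genes passed the threshold in either direction. In RNA of a whole culture, less mRNA per cell and fewer cells that express a gene cannot be told apart. The test was the quasi-likelihood F-test of edgeR, with p adjusted by Benjamini-Hochberg over 15307 genes and a threshold of 0.05. It called 10 of those genes (0.0653%), so a count of 0 in 10 genes does not set them apart from the rest. DESeq2, which called 3.4% of the genes to which it gave an adjusted p, and limma on log2 FPKM with a pseudocount of 1 or 0.1, which each called 0.0808%, also called 0 of the 10. Limma with sample quality weights, which called 15.0% of the genes, called 0 of the 10 as well. Before adjustment, 0 of the 10 genes had a p under 0.05, against 14.1% of the genes tested. With quality weights 3 did, *Opa1*, *Mief1* and *Mief2*, against 34.8% of the genes. Without Ctrl shRNA replicate 1, edgeR also gave 3, *Fis1*, *Mff* and *Mief1*, against 24.1% of the genes. The log2 fold change, knockdown over control, was positive for 6 and negative for 4 of the genes. Its median over the 10 was 0.03, beside -0.01 over all genes tested. The median size of the change regardless of sign was 0.13, beside 0.22 over all genes tested. The control and knockdown libraries did not overlap in 1 of the 10 genes, *Opa1*, and in 25.4% of all genes tested.

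**Figure D1:**
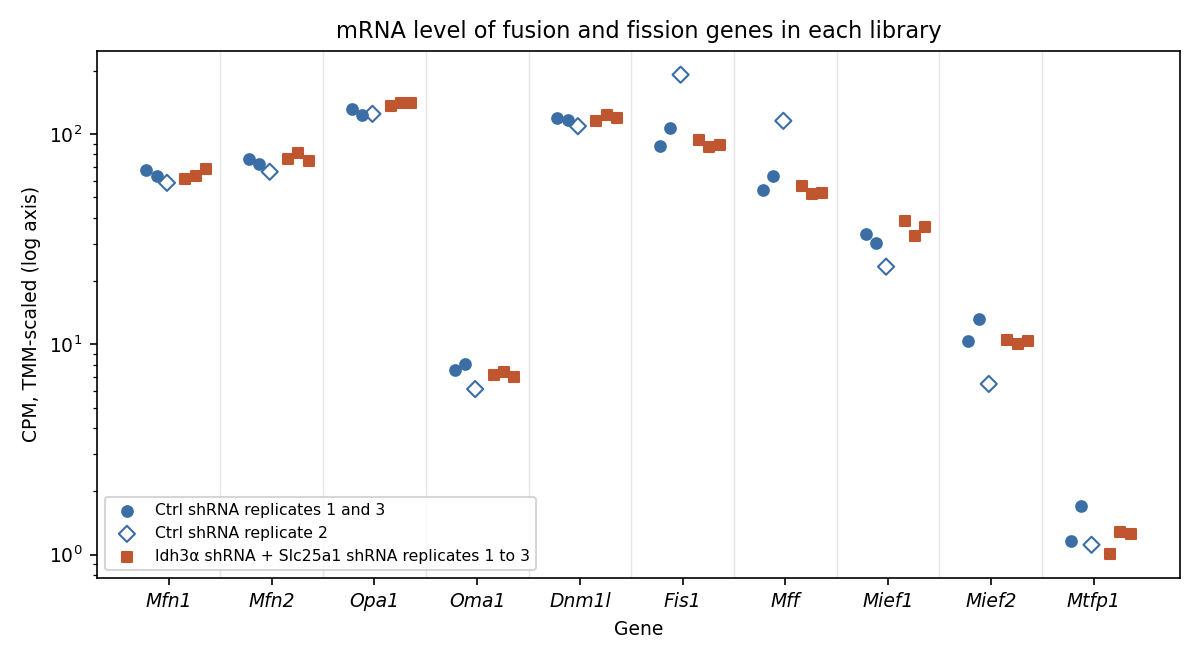
The level of each of the 10 genes in each library, in CPM after TMM scaling on a log axis, with filled circles for Ctrl shRNA replicates 1 and 3, open diamonds for Ctrl shRNA replicate 2 and squares for the 3 knockdown libraries. *Fis1* at 191 CPM and *Mff* at 115 CPM in Ctrl shRNA replicate 2 lie far above their other 5 libraries, while in *Opa1* all knockdown squares lie above all control points.

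Among the fusion genes, *Mfn1* (ENSMUSG00000027668, chromosome 3 of GRCm38, 32529465 to 32579239) gave 67.2, 58.6 and 63.1 CPM with Ctrl shRNA and 61.0, 63.0 and 68.3 CPM with knockdown. The ranges overlapped almost completely, and the means were 63.0 ± 4.31 and 64.1 ± 3.82 CPM (SD, n = 3 each). Its log2 fold change was 0.03 (standard error 0.09, 95% interval -0.18 to 0.23, adjusted p = 0.899 from edgeR's test). In percent, the interval ran from -11.9% to 17.6%. *Mfn2* (ENSMUSG00000029020, chromosome 4, 147873599 to 147904704) gave 75.9, 66.1 and 72.0 CPM with Ctrl shRNA and 75.9, 81.6 and 74.3 CPM with knockdown. Control replicate 1 was above knockdown replicate 3, so the groups overlapped. The means were 71.3 ± 4.92 and 77.3 ± 3.82 CPM (SD, n = 3 each). This was a log2 fold change of 0.12 (standard error 0.08, 95% interval -0.08 to 0.32, adjusted p = 0.490 from edgeR's test), or -5.71% to 24.5% in percent. With all libraries, a fall of either mRNA below these lower bounds lay outside the 95% interval. Without Ctrl shRNA replicate 2 the lower bounds were -13.6% for *Mfn1* and -7.39% for *Mfn2*.

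*Opa1* (ENSMUSG00000038084, chromosome 16, 29579334 to 29654884), the gene of the inner membrane GTPase, gave 131, 125 and 123 CPM with Ctrl shRNA and 136, 141 and 140 CPM with knockdown. Every knockdown library was above every control. The difference was small, from 126 ± 4.03 to 139 ± 2.38 CPM (SD, n = 3 each), a log2 fold change of 0.14 (standard error 0.07, 95% interval -0.02 to 0.30, adjusted p = 0.370 from edgeR's test). *Oma1* (ENSMUSG00000035069, chromosome 4, 103313812 to 103371868), whose protease cleaves OPA1, had far fewer counts, with 7.53, 6.12 and 8.09 CPM after Ctrl shRNA and 7.12, 7.35 and 6.98 CPM after knockdown. The knockdown values lay inside the control range. This gave a log2 fold change of -0.02 (standard error 0.15, 95% interval -0.38 to 0.34, adjusted p = 0.954 from edgeR's test).

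*Dnm1l* (ENSMUSG00000022789, chromosome 16, 16312230 to 16358959), the gene of the fission GTPase DRP1, gave 119, 109 and 117 CPM with Ctrl shRNA and 116, 123 and 119 CPM with knockdown. The groups overlapped, with means of 115 ± 5.31 and 119 ± 3.49 CPM (SD, n = 3 each). The fitted log2 fold change was 0.05 (standard error 0.07, 95% interval -0.12 to 0.22, adjusted p = 0.732 from edgeR's test). In percent, the interval ran from -8.06% to 16.7%, so a rise of the mRNA above this upper bound lay outside it.

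Of the genes for outer membrane proteins that bind DRP1, *Fis1* and *Mff* varied most among the controls. *Fis1* (ENSMUSG00000019054, chromosome 5, 136953275 to 136966234), the gene of a small tail-anchored protein, gave 87.7, 191 and 106 CPM with Ctrl shRNA and 93.5, 86.3 and 89.0 CPM with knockdown. *Mff* (ENSMUSG00000026150, chromosome 1, 82724890 to 82752394), the gene of mitochondrial fission factor, gave 53.9, 115 and 63.0 CPM with Ctrl shRNA and 56.5, 51.7 and 52.7 CPM with knockdown. In both genes Ctrl shRNA replicate 2 was the highest library, at 1.97-fold of the mean of control replicates 1 and 3, and the remaining controls overlapped with the knockdown libraries. For *Fis1* the log2 fold change was -0.52 (standard error 0.28, 95% interval -1.21 to 0.17, adjusted p = 0.397 from edgeR's test). For *Mff* it was -0.53 (standard error 0.28, 95% interval -1.21 to 0.15, adjusted p = 0.390 from edgeR's test). These were the widest intervals but for that of *Mtfp1*.

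*Mief1* (ENSMUSG00000022412, chromosome 15, 80234018 to 80253371) encodes the DRP1 receptor MiD51, and *Mief2* (ENSMUSG00000018599, chromosome 11, 60728398 to 60732951) the related receptor MiD49. *Mief1* gave 33.5, 23.4 and 30.3 CPM with Ctrl shRNA and 38.4, 32.8 and 36.2 CPM with knockdown. Only control replicate 1 reached into the knockdown range. The means were 29.05 ± 5.15 and 35.8 ± 2.80 CPM (SD, n = 3 each), a log2 fold change of 0.30 (standard error 0.15, 95% interval -0.06 to 0.66, adjusted p = 0.375 from edgeR's test). *Mief2* gave 10.4, 6.48 and 13.2 CPM with Ctrl shRNA and 10.5, 10.1 and 10.4 CPM with knockdown. The controls spread to both sides of the 3 knockdown libraries, which were nearly equal. Its log2 fold change was 0.04 (standard error 0.25, 95% interval -0.58 to 0.65, adjusted p = 0.954 from edgeR's test). In both genes Ctrl shRNA replicate 2 was the lowest library, in contrast to *Fis1* and *Mff*.

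*Mtfp1* (ENSMUSG00000004748, chromosome 11, 4091480 to 4095445), which encodes an inner membrane protein linked to fission, had the fewest counts of the genes, 22 to 49 per library. It gave 1.16, 1.11 and 1.71 CPM with Ctrl shRNA and 1.01, 1.29 and 1.25 CPM with knockdown. The groups overlapped. At such counts the log2 fold change was -0.17 (standard error 0.30, 95% interval -0.90 to 0.56, adjusted p = 0.789 from edgeR's test), an interval that spans -46.5% to 46.9%.

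Without Ctrl shRNA replicate 2, again 0 of the 10 genes passed in either direction, while edgeR's test called 281 of 15709 genes (1.79%). DESeq2 without that library called 0 of the 9 genes to which it gave an adjusted p, *Mtfp1* having none, and 7.55% of all genes with one. Before adjustment, 0 of the 10 had a p under 0.05, against 19.9% of the genes tested. Here 2 controls were compared with 3 knockdown libraries. The standard errors shrank, with a median of 0.09 over the 10 genes against 0.15 with all libraries. All 10 of the 95% intervals then lay within 2-fold either way, against 8 with all libraries, and 9 lay within 1.5-fold, against 5. The log2 fold change was positive for 4 genes and negative for 6, with a median of -0.08 beside -0.02 over all genes tested. Regardless of sign, the median size of the change was 0.13, beside 0.16 over all genes tested. The log2 fold changes of *Mfn1* and *Mief2* turned from positive to negative, at -0.03 and -0.20.

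The changes of *Fis1* and *Mff* moved most. *Fis1* went from -0.52 to -0.12 (95% interval -0.33 to 0.08, adjusted p = 0.469 from edgeR's test without that library). *Mff* went from -0.53 to -0.13 (95% interval -0.33 to 0.06, adjusted p = 0.414 from the same edgeR test). *Mief1* went from 0.30 to 0.16 (95% interval -0.06 to 0.37, adjusted p = 0.386 from the same edgeR test). The estimates for the large GTPases moved little. *Opa1* was at 0.12 (95% interval -0.03 to 0.27, adjusted p = 0.345, edgeR), *Mfn2* at 0.05 (95% interval -0.11 to 0.22, adjusted p = 0.716, edgeR) and *Mfn1* at -0.03 (95% interval -0.21 to 0.15, adjusted p = 0.851, edgeR). For *Dnm1l* the log2 fold change was 0.00 (95% interval -0.14 to 0.15, adjusted p = 0.978, edgeR). The remaining genes were *Oma1* at -0.14 (adjusted p = 0.573, edgeR), *Mief2* with an adjusted p of 0.416 (edgeR) and *Mtfp1* at -0.29 (adjusted p = 0.624, edgeR). Without that library the groups did not overlap in 2 of the 10 genes, *Opa1* and *Oma1*, and in 37.6% of all genes tested.

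**Figure D2:**
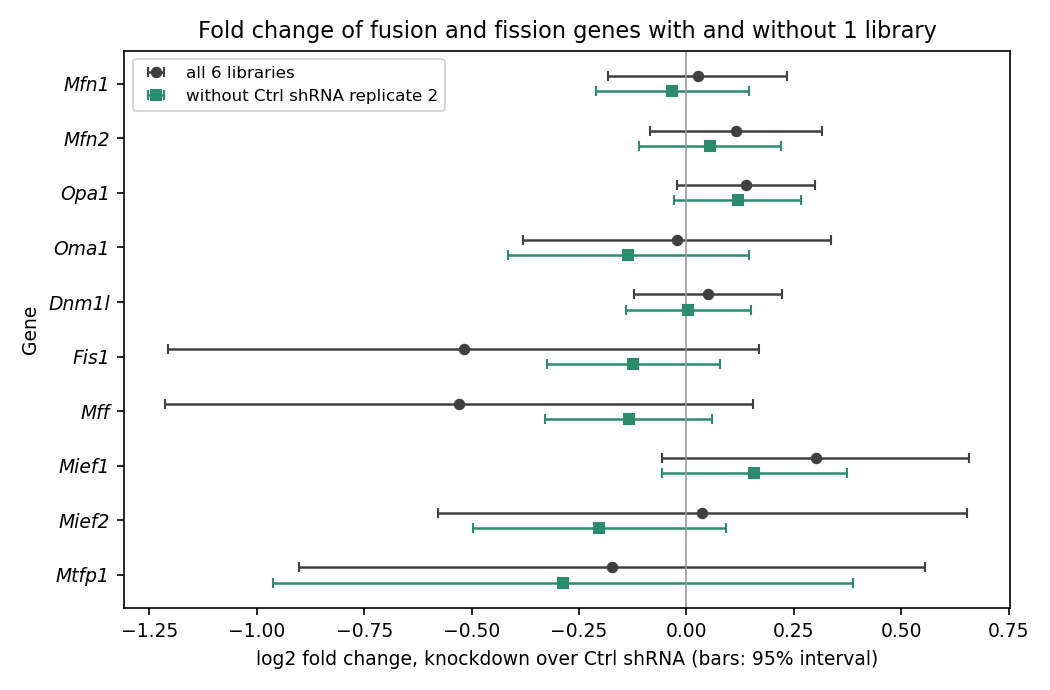
The log2 fold change of each gene, knockdown over Ctrl shRNA, with its 95% interval from edgeR's quasi-likelihood test, as circles for all 6 libraries and squares without Ctrl shRNA replicate 2. All 20 intervals include 0, and those of *Fis1* and *Mff* shrink most when that library is left out.

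The departure of Ctrl shRNA replicate 2 was set beside transcript length, since it differed across the genes. Over all genes tested with a principal transcript, the median log2 ratio of this library to the mean of control replicates 1 and 3 was 1.44 for transcripts of up to 1000 bases, over 724 genes. It was 0.22 for 1000 to 2000 bases and -0.16 above 6000 bases. *Fis1* has the shortest principal transcript of the 10, at 786 bases, and a ratio of 0.98. *Opa1* has the longest, at 6230 bases, and a ratio of -0.03. *Mff*, at 1894 bases, also had a ratio of 0.98, above the upper quartile of 0.87 for its length class. *Mief2*, at 2522 bases, had the lowest ratio of the 10, -0.86, below the lower quartile of -0.30 for its class. Of all genes tested, 22.7% departed by at least 2-fold in this library, and none of the 10 genes did. *Fis1* and *Mff* came closest, each at 1.97-fold of the mean of control replicates 1 and 3. Departures at least as large were seen in 23.3% and 23.2% of the genes tested. The part of transcript length in the differences between the groups was not tested.

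**Figure D3:**
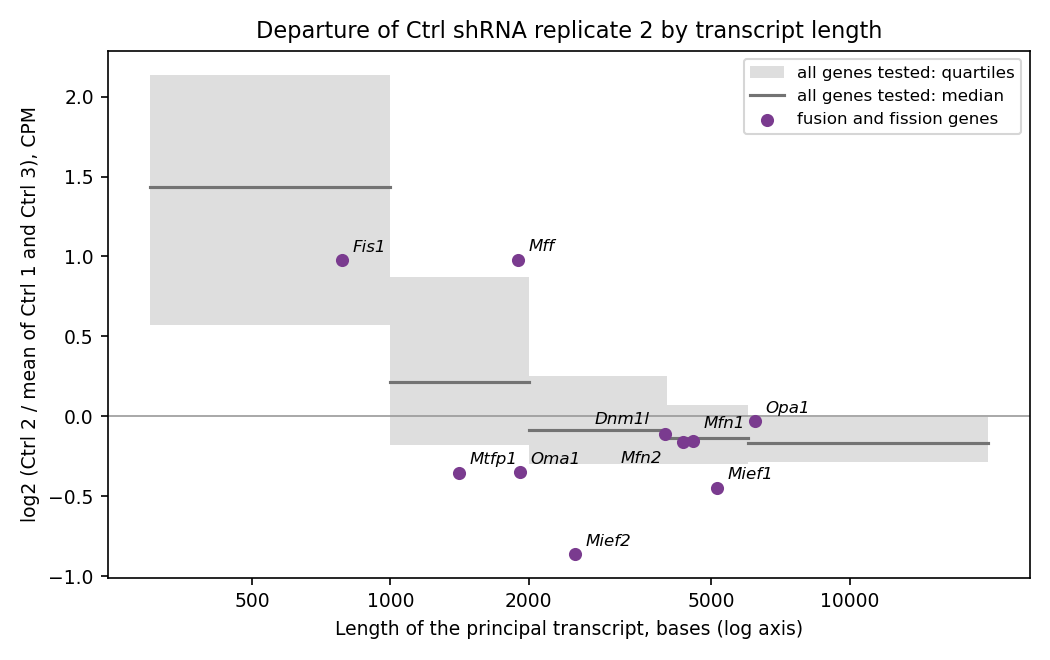
The log2 ratio of Ctrl shRNA replicate 2 to the mean of Ctrl shRNA replicates 1 and 3, in CPM, against the length of the principal transcript in bases on a log axis. Points are the 10 genes, dark lines the medians and grey bands the quartiles of all genes tested per length class. *Fis1* and *Mff* lie at 0.98 and *Mief2* at -0.86, while *Opa1*, *Dnm1l* and the mitofusins lie between -0.16 and -0.03.

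Levels were compared between the genes as FPKM, which divides by the length counted for each gene. In the controls *Fis1* was highest at 74.9 ± 31.5 FPKM, followed by *Dnm1l* at 22.1 ± 1.203, *Opa1* at 16.1 ± 0.567 and *Mfn2* at 13.8 ± 1.05 FPKM (SD, n = 3 each). No library of one of these genes reached the range of the next. *Mfn1* at 10.3 ± 0.781 and *Mff* at 7.94 ± 3.33 FPKM overlapped. *Mief2* at 3.71 ± 1.28, *Mief1* at 3.60 ± 0.663 and *Oma1* at 3.39 ± 0.5003 FPKM formed a group in which all ranges overlapped. *Mtfp1* was lowest, at 0.767 ± 0.195 FPKM (SD, n = 3). The order in the knockdown libraries was the same except that *Mief1*, at 4.43 ± 0.349 FPKM, stood above *Mief2*, at 3.81 ± 0.0909 FPKM, and no neighbours overlapped there. In control replicates 1 and 3 alone the order was that of all controls, *Fis1* was at 57.04 FPKM, and *Mfn1* and *Mff* no longer overlapped, at means of 10.7 and 6.04 FPKM. *Fis1*, whose FPKM was higher than that of 94.1% of the genes tested, was at 52.4 ± 2.15 FPKM in the knockdown libraries (SD, n = 3). Among the genes tested, 81.8% were below *Dnm1l*, 72.7% below *Mfn2* and 65.2% below *Mfn1*, against 18.8% below *Mtfp1*. The length counted for *Mff* was 9757 bases, while its principal transcript has 1894 bases, so its place in the order depends on that length.

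Ratios of counts within a library do not depend on how libraries are scaled, and 5 pairs of the genes were compared in this way. The log2 ratio of *Mfn1* to *Mfn2* was -0.18, -0.17 and -0.19 in the controls and -0.32, -0.37 and -0.12 in the knockdown libraries. The controls were nearly equal and lay within the wider knockdown range (difference -0.09, two-sided exact permutation test, p = 0.4, adjusted p = 0.5 over the 5 pairs by Benjamini-Hochberg). Leaving out knockdown replicate 2 or 3 gave differences of -0.04 (exact p = 0.7) and -0.17 (exact p = 0.1). The log2 ratio of *Dnm1l* to *Mfn1* was 0.83, 0.89 and 0.89 in the controls and 0.92, 0.96 and 0.80 in the knockdown libraries (difference 0.03, exact p = 0.6, adjusted p = 0.6). These libraries overlapped. For *Dnm1l* to *Mfn2* it was 0.65, 0.72 and 0.70 in the controls and 0.61, 0.59 and 0.68 in the knockdown libraries (difference -0.07, exact p = 0.2, adjusted p = 0.5). Only knockdown replicate 3 was above the lowest control in this ratio. Without Ctrl shRNA replicate 2 the differences in these 3 ratios were -0.09, 0.04 and -0.05, and the groups still overlapped in each.

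The log2 ratio of *Mief1* to *Mief2* was 1.69, 1.85 and 1.19 in the controls and 1.87, 1.71 and 1.80 in the knockdown libraries (difference 0.21, exact p = 0.4, adjusted p = 0.5). Control replicate 3 was far below the other libraries. For *Oma1* to *Opa1* the ratio was -4.12, -4.35 and -3.93 in the controls and -4.26, -4.26 and -4.33 in the knockdown libraries (difference -0.15, exact p = 0.4, adjusted p = 0.5). Without Ctrl shRNA replicate 2 the groups no longer overlapped in these last 2 ratios, with differences of 0.35 and -0.26. Without control replicate 3 the differences were 0.02 (exact p = 0.7) and -0.05 (exact p = 0.9) instead. An exact test of 3 libraries against 3, or of 2 against 3, cannot give a two-sided p under 0.1.

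**Figure D4:**
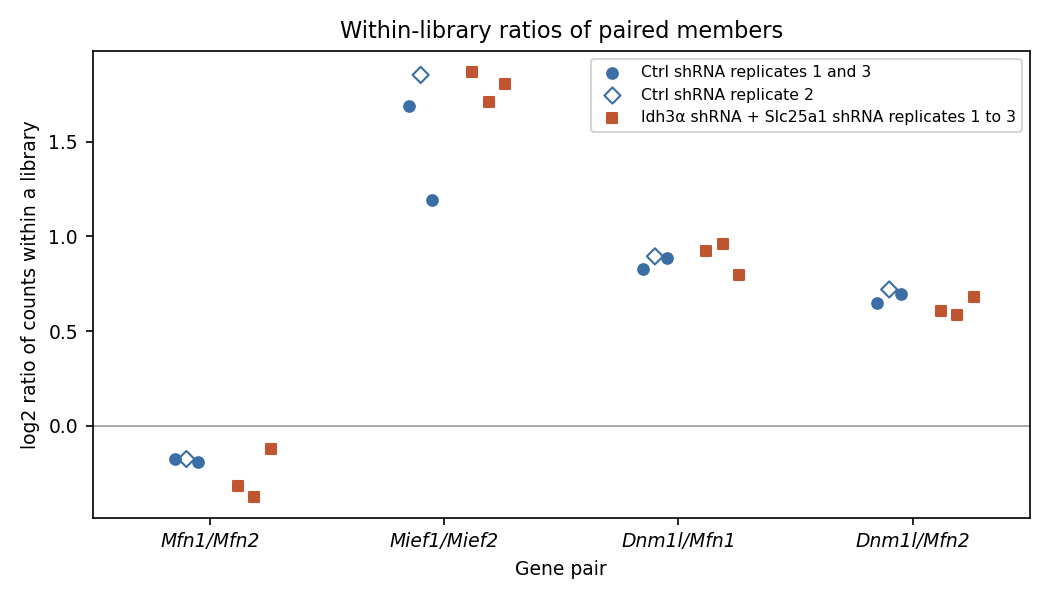
The log2 ratio of counts within each library for 4 of the 5 gene pairs, with circles for Ctrl shRNA replicates 1 and 3, diamonds for Ctrl shRNA replicate 2 and squares for the 3 knockdown libraries. The pair *Oma1*/*Opa1*, near -4, is not drawn. The *Mfn1*/*Mfn2* ratio lies between -0.37 and -0.12 in all libraries, and control and knockdown points overlap in every pair drawn.

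Other genes overlap some of the 10 in the genome, and whether reads were counted by strand is not stated. *Mff* overlaps the antisense gene *C430014B12Rik* over 195 exon bases, and that gene held 82 to 164 counts per library against 1562 to 2281 for *Mff*. The intron of *Mff* holds *Gm28941* on the same strand, with 24 to 59 counts. *Dnm1l* overlaps the antisense gene *Gm49521* over 243 exon bases, with 0 to 8 counts against 2151 to 3718 for *Dnm1l*. *Mief1* shares 213 exon bases with *AC140267.1*, a short coding gene on the same strand that had 0 counts in every library. *Gm13156* in *Mfn2* and *Mir5100* in *Mief2* overlap no exon and held at most 5 and 2 counts. Of the stretches of 50 bases in each gene's transcripts, 4.90% of those of *Dnm1l*, 1.99% of *Mief1*, 1.45% of *Mff* and 0.885% of *Mfn1* also occur in another annotated gene. For the other 6 genes this share was 0.

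The promoters of the 10 genes were searched for 7 short motifs on both strands, from 250 bases before to 50 bases after the RefSeq start on GRCm38.p6. The RefSeq table held 15 promoters of the 10 genes, since some genes have several starts, and a gene was counted if any of its promoters matched. The core of the site of NRF1, a regulator of nuclear genes for mitochondrial proteins, was taken as GCGCA and GCGC with any base between them. It occurred in 2 of the 10, *Opa1* and *Oma1*, and in 5.188% of all 27025 genes of the table. The ETS core CCGGAAG, which GABP also binds, occurred in 4 of the 10, *Dnm1l*, *Fis1*, *Mfn1* and *Mief1*, and in 9.928% of all genes. The E-box CACGTG occurred in *Mief2* and in 8.093% of all genes. The ERR half-site TCAAGGTCA, the CRE TGACGTCA, the ATF4 composite letters TGATGNAAN and the kappaB letters GGGA and TTCC around any 2 bases occurred in none of the 10. They occurred in 0.466%, 2.031%, 4.496% and 1.632% of all genes. These are matches of letters, and binding was not measured.

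The wider machinery of mitochondrial dynamics was examined in 5 lists with 64 genes. Of these, 62 were tested, while *Pld6* and *Gdap1* had too few counts. With all libraries, 0 genes were higher and 0 were lower by edgeR's test, beside 0.0653% called of all genes tested. Before adjustment, 7 had a p under 0.05 with a positive and 4 with a negative fold change, beside 14.1% of the genes tested in either direction. The median log2 fold change over the 62 was 0.05, and 0.02 without Ctrl shRNA replicate 2. For the 10 genes of OPA1 processing and inner membrane quality control, such as the proteases *Yme1l1* and *Afg3l2*, the medians were 0.03 and 0.09. For the 9 outer membrane fusion partners and ubiquitin ligases that were tested they were -0.01 and 0.00, and for the 9 adaptors of mitochondrial transport 0.06 and 0.00. Among the 22 tested regulators of DRP1 and of constriction they were 0.07 and 0.04.

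The list of MICOS and cristae genes held 12 genes, with a median log2 fold change of -0.43, a range of -1.60 to 0.28 and a median of -0.04 without Ctrl shRNA replicate 2. Its 7 genes for subunits of MICOS, the complex that shapes cristae at the inner membrane, had a median of -1.32 with a range of -1.60 to 0.23, and a median of -0.30 with a range of -0.63 to 0.32 without that library. The highest of these values were those of *Immt*, the gene of a core subunit, which passed as higher with limma quality weights and with DESeq2 without Ctrl shRNA replicate 2. The subunit gene *2410015M20Rik* passed as lower in both of these settings, and *Minos1* with the quality weights. The other 5 genes had medians of 0.08 and 0.07, and *Dnajc11* among them passed as higher with the quality weights. This division of the list was made after its values were seen. Ctrl shRNA replicate 2 was the highest library in 6 of the 7 subunit genes and in 2 of the other 5 genes. The share over all genes tested was not computed. The subunit gene *Minos1*, which had the lowest fold change of the list, gave 112, 629 and 210 CPM with Ctrl shRNA and 118, 84.2 and 110 CPM with knockdown. The log2 fold change of *Minos1* was -1.60 (adjusted p = 0.351 from edgeR's test) with all libraries and -0.63 without that one (adjusted p = 0.189, edgeR).

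Without Ctrl shRNA replicate 2, 1 gene of the 62 rose and 0 fell, beside 1.11% of all genes tested that rose and 0.675% that fell. It was *Akap1* (ENSMUSG00000018428), which encodes an outer membrane anchor for protein kinase A, a kinase that phosphorylates DRP1. *Akap1* gave 86.7, 66.0 and 84.6 CPM with Ctrl shRNA and 110, 110 and 112 CPM with knockdown. All knockdown libraries were above all controls and nearly equal to each other. Its log2 fold change was 0.36 without Ctrl shRNA replicate 2 (standard error 0.06, 95% interval 0.22 to 0.50, adjusted p = 0.0325 from edgeR's test). With all libraries it was 0.48 (standard error 0.12) and did not pass (adjusted p = 0.258 from edgeR's test), while DESeq2 gave an adjusted p of 0.0466. Of the 19 settings examined it passed in 4.

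*Fundc1* (ENSMUSG00000025040) encodes an outer membrane mitophagy receptor that can recruit DRP1 and is of interest to the study. It gave 21.3, 63.8 and 23.6 CPM with Ctrl shRNA and 20.6, 22.1 and 17.7 CPM with knockdown. Ctrl shRNA replicate 2 was at 2.84-fold of the mean of the other controls. Its log2 fold change was -0.84 with all libraries (standard error 0.43, edgeR adjusted p = 0.384). Without that library it was -0.17 (95% interval -0.42 to 0.09, adjusted p = 0.444 from edgeR's test), and it passed in 0 of the 19 settings.

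**Figure D5:**
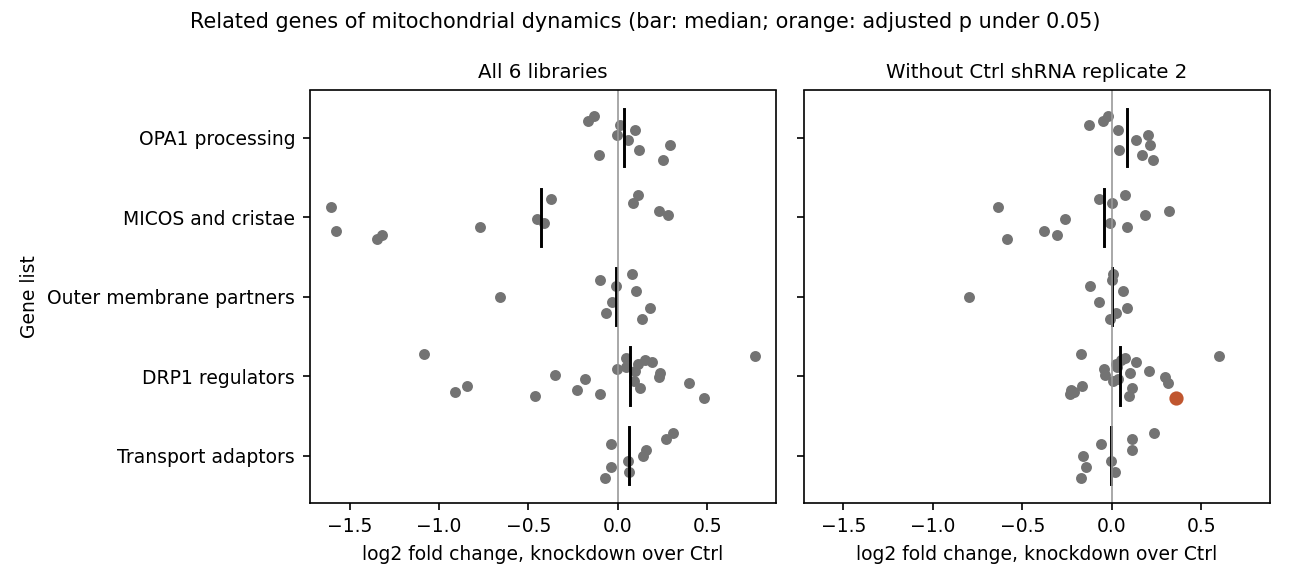
The log2 fold change, knockdown over Ctrl shRNA, of 62 related genes in 5 lists, with all 6 libraries on the left and without Ctrl shRNA replicate 2 on the right. Each point is a gene, black bars are list medians, and the orange point is *Akap1* at 0.36, the only gene past an adjusted p of 0.05 in either panel. The points of the MICOS and cristae list reach -1.60 on the left, where their median is -0.43, and their median on the right is -0.04.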

How the data were processed

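Groups and replicate numbers came from the sample labels. The authors deposited whole-number read counts per gene, and FPKM values that scale the same counts by gene length and a library size of their own. The submitters' processing notes name HISAT2 2.0.5, StringTie 1.3.3b, featureCounts 1.5.0-p3 and mm10, and the labels also mention Trinity. The use of strand is not given in the sources used here. Coordinates are those of GRCm38, and all 10 genes had the same ends in GENCODE M21. Libraries were prepared with NEBNext Ultra and sequenced paired-end.

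Counts were filtered with filterByExpr, scaled with TMM and tested with the quasi-likelihood test of edgeR 4.0.16 in R 4.3.3, without covariates. Intervals are 95% intervals from the fitted log2 fold changes and their standard errors. Alternatives used DESeq2 1.42.0, limma 3.58.1 on log2(FPKM + 1) or log2(FPKM + 0.1), and the settings named in the closing section, giving 19 settings in all. Pair ratios were tested by exact permutation. Scripts were tested on simulated data. A check for a library deposited more than once found none (chi-square per degree of freedom 6.13 to 503 between replicates). Tables and figures used Python 3.11.15, pandas 2.3.3 and matplotlib 3.10.9.

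All 10 genes are named. The rule also named the targeted genes, related genes past the threshold with all libraries or without Ctrl shRNA replicate 2, *Fundc1*, and genes overlapping the 10. *Minos1*, *Immt*, *2410015M20Rik*, *Dnajc11*, *Yme1l1*, *Afg3l2* and the marker genes printed were named outside that rule, after their values were seen. The genes and lists were chosen with earlier results of these data known. In the count table, *March5* appears as a date and was identified by its Ensembl number. Some sequences are not reported here.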

Additional observations from a re-analysis of the deposited data

How the results depend on the processing

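In 18 settings 0 of the 10 genes passed as higher or lower, and with DESeq2 without Ctrl shRNA replicate 2 it was 0 of 9, *Mtfp1* having no adjusted p there, with the smallest adjusted p at 0.0584 (*Mief1*, limma with sample quality weights, Benjamini-Hochberg). Of 180 recomputed log2 fold changes, 170 kept their sign, and 6 genes had the same sign in every setting. Sizes moved more, and with library size only *Fis1* and *Mff* were at -0.25 and -0.27. In that setting *Mfn1*, *Mfn2*, *Opa1* and *Dnm1l* were at 0.19, 0.28, 0.31 and 0.22. *Mfn1* was at -0.029 with DESeq2 without Ctrl shRNA replicate 2, and between -0.033 and 0.079 when single libraries were left out. *Oma1* was at 0.13 with library size only, and between -0.14 and 0.051 when single libraries were left out. *Mief2* was at -0.27 with quality weights and at -0.20 with DESeq2 without Ctrl shRNA replicate 2, and between -0.20 and 0.27 when single libraries were left out. *Mtfp1* was at -0.49 with quality weights, and between -0.29 and 0.038 when single libraries were left out. The difference in the *Dnm1l*/*Mfn1* ratio ranged from -0.0082 to 0.073 when single libraries were left out. The number of related genes that passed was 1 higher and 0 lower with DESeq2 (2.0% and 1.4% of all genes with an adjusted p), 8 higher and 5 lower with quality weights (8.67% and 6.34%), 5 higher and 1 lower of the 60 with an adjusted p with DESeq2 without Ctrl shRNA replicate 2 (4.47% and 3.08%), and from 0 to 1 higher and 0 lower when single libraries were left out, the 1 being *Akap1*. With the replicate number as a block, 0 of the 10 genes and 0 of all genes passed by edgeR's test, while *Mief1* and 7.4% of all genes had an unadjusted p under 0.05. With limma on unfiltered FPKM, *Opa1* and 9.28% of all genes had one. The labels do not say whether equal numbers mark shared cultures, and the samples were not treated as pairs. Deviations of equally numbered libraries from their group means correlated at -0.15, -0.09 and 0.04. With so few libraries, and with Ctrl shRNA replicate 2 standing apart, these values cannot decide whether the samples were paired. Other alternatives were median-of-ratios size factors, a floor of 10 counts in each sample, no count filter and protein-coding genes only. The cause of these changes was not tested. The fewest counts were those of *Mtfp1*, with 22 to 49 per library.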
